A study of Mus musculus with 6 samples.

Results

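The nuclear genes for subunits of the mitochondrial respiratory chain and of ATP synthase were followed in mouse liver with and without the kinase LKB1. Members were taken by symbol alone: symbols that start with Ndufa, Ndufb, Ndufc, Ndufs or Ndufv (complex I), Sdha to Sdhd (complex II), Uqcr (complex III), Cox4 to Cox8 (complex IV) and Atp5 (complex V). The prefixes matched 111 rows. The 8 Ndufaf and 4 Sdhaf assembly factors and 5 symbols ending in "-ps" and a number were left out. That left 94 members of 55450 genes: 43 in complex I, 4 in complex II, 8 in complex III, 19 in complex IV and 20 in complex V. By annotation 86 members code for protein, 7 are processed pseudogenes, and Ndufb1-ps is listed as a long noncoding RNA. A minimum on low counts kept 82 members for testing (80 of them protein-coding). The other 12 members were Ndufa11b, Ndufab1-ps, Ndufs6b, Cox4i2, Cox6a2, Cox6c2, Cox7b2, Cox8b, Cox8c, Atp5c1-ps, Atp5l2-ps and a second row named Atp5o, and 5 of these were listed at 0 in every library. Of the 82 members tested, 81 had at least 10 counts in every control library.

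The 6 libraries came from the left lobe of the liver of C57BL/J mice aged 10 weeks, 1 library per mouse. In 3 mice Lkb1 was floxed (LKB1 fl/fl, labelled LKB1 knock out), and 3 mice had the normal genotype (WT). Both groups received adeno-associated virus 8 carrying Cre at 6 weeks of age and were sampled 4 weeks later, so the controls carried the virus and Cre as well. The promoter that drives Cre is not given in the sources used here. Poly(A) RNA was sequenced as paired reads of 76 bases, and library totals ranged from 47659106 to 56147638 rounded expected counts.

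The respiratory chain passes electrons from NADH (through complex I) and from succinate (through complex II) by way of coenzyme Q, complex III and cytochrome c to oxygen at complex IV. Complexes I, III and IV pump protons across the inner mitochondrial membrane, and complex V, ATP synthase, uses their return to make ATP. Most subunits are encoded in the nucleus, the rest in mitochondrial DNA, and hepatocytes depend on the chain for gluconeogenesis, ureagenesis and fat oxidation. LKB1, encoded by Stk11, phosphorylates and activates AMPK and related kinases. AMPK senses the energy state of the cell and is a known regulator of mitochondrial biogenesis.

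Stk11 (chr10:80115803-80130682, plus strand, GRCm38) checked the labels. Its level was 22.2, 14.4 and 11.4 CPM (counts scaled to a common library size after TMM normalisation) in knockout libraries 1, 2 and 3. In WT libraries 1, 2 and 3 it was 66.1, 64.2 and 69.7 CPM. Knockout 1 and WT 1 had 42472 and 29243 Xist counts and at most 6 Y-linked counts. The other 4 libraries had at most 16 Xist counts and from 6146 to 8199 Y-linked counts, so each group held 1 library of the first kind and 2 of the second. All 6 hepatocyte markers were present in every library. None passed the test (edgeR; 3 had an unadjusted p under 0.05), and the list went both ways. Alb, Apoa1 and Ttr lay below WT in every knockout library, while Cps1 (log2 fold change 1.17, adjusted p = 0.0983) and Hnf4a (0.20, adjusted p = 0.470) lay above it. The list's sum, most of it Alb in WT, was between 20150 and 63760 CPM in knockout, below the WT range of 72470 to 113100 CPM. All 6 sinusoidal endothelial markers had a lower mean level in knockout, and 5 of them lay below WT in every knockout library. Of the 14539 genes tested 2251 did so. No endothelial marker passed the test (edgeR), and 5 had an unadjusted p under 0.05, beside 3817 of the 14539 genes in either direction. The sum of the endothelial markers ranged from 66.8 to 113.9 CPM in the knockout libraries, and from 139.6 to 195.5 CPM in the WT libraries. None of the Kupffer cell, cholangiocyte, stellate cell, lymphocyte and erythroid markers passed (edgeR), and 1 lymphocyte marker had an unadjusted p under 0.05. The fold change was negative for all 6 stellate cell, all 4 lymphocyte and all 3 erythroid markers (medians -0.55, -1.09 and -1.22). It was negative for 4 of 6 Kupffer cell and 3 of 5 cholangiocyte markers, and for 7129 of the 14539 genes tested. Of these lists, 2 lymphocyte markers alone lay below WT in every knockout library. DESeq2 called 1 hepatocyte marker higher and 3 lower, 3 endothelial markers lower, and no marker of those 5 lists. Of all genes it called 8.77% higher and 7.03% lower. The part of these cell markers in the results was not tested, and in bulk tissue fewer cells of a type cannot be told apart from less RNA per cell.

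The mean level of nearly every subunit transcript was higher in knockout liver, in all 5 complexes, although few single genes passed the test. The log2 fold change was above 0 for 81 of 82 members (98.8%), against 51.0% of the 14539 genes tested. Its median over the members was 0.67 (interquartile range 0.56 to 0.86), beside 0.01 over all genes tested, and 70 of the 82 members lay between 0.4 and 1.0. Every knockout library was above every WT library for 74 members (90.2%), against 16.9% of all genes, and no member lay below WT throughout. Overlap between the groups was seen for Ndufa11, Ndufa3, Ndufa4l2, Ndufb3, Ndufv3, Sdha, Cox6b2 and Atp5s. Summed over all members, the level was 13150, 17420 and 20070 CPM in knockout libraries 1, 2 and 3. In WT libraries 1, 2 and 3 it was 9454, 10400 and 10040 CPM, and the ratio of the means was 1.69.

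At an adjusted p under 0.05 (edgeR quasi-likelihood test, Benjamini-Hochberg over all genes), 6 members rose (7.32%), against 2.15% of all genes tested, and none fell, against 1.22%; in either direction 3.37% of all genes were called. No member fell in DESeq2, where 7.03% of all genes did, or in limma voom, where 1.22% did, and no member with a negative fold change had an unadjusted p under 0.05. The 6 were Uqcr10, Cox7a1, Cox7b, Cox5b, Atp5g1 and Atp5j2, from complexes III, IV and V. A further 51 members had an adjusted p between 0.05 and 0.10, which makes 57 higher at 0.10 (69.5%), against 7.39% of all genes. An unadjusted p under 0.05 was reached by 76 members (92.7%), all higher, against 14.6% of all genes. Just outside the threshold lay Ndufa5 (adjusted p = 0.0504), Ndufb2 and Cox7c (both 0.0507), Ndufa12 (0.0536), Cox7a2 and Ndufc2 (both 0.0541).

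The number of calls moved whichever library was left out, and most with knockout library 1. Without knockout 1, 76 of 83 members tested rose, against 16.0% of all genes, and Ndufa4l2 fell, against 14.2%. Without any one of knockout 2, knockout 3, WT 1, WT 2 or WT 3 no member passed in edgeR, while between 59 and 65 members still had an unadjusted p under 0.05. In those 5 fits 0.484%, 0.207%, 1.02%, 0.0334% and 0.113% of all genes were called higher, in the same order. These shares are at an adjusted p under 0.05. The shares of all genes at an unadjusted p under 0.05 in those fits are not given here. Among the 4 libraries with Y-linked counts, 2 per group, 73 of 83 members rose, against 17.2% of all genes. The tool and model mattered as well. DESeq2 called 61 of 82 members higher, against 8.77% of all genes, and limma voom 6, against 1.75%. In edgeR the count was 6 with RLE size factors (2.05% of all genes), 27 with no scaling beyond library size (2.61%), 15 of 89 with no filter (2.04%) and 47 with Xist state as a covariate (5.36%). A replicate block left 0 (0.543%). In that fit 73 members had an unadjusted p under 0.05, and the share of all genes at that threshold is not given here.

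**Figure D1:**
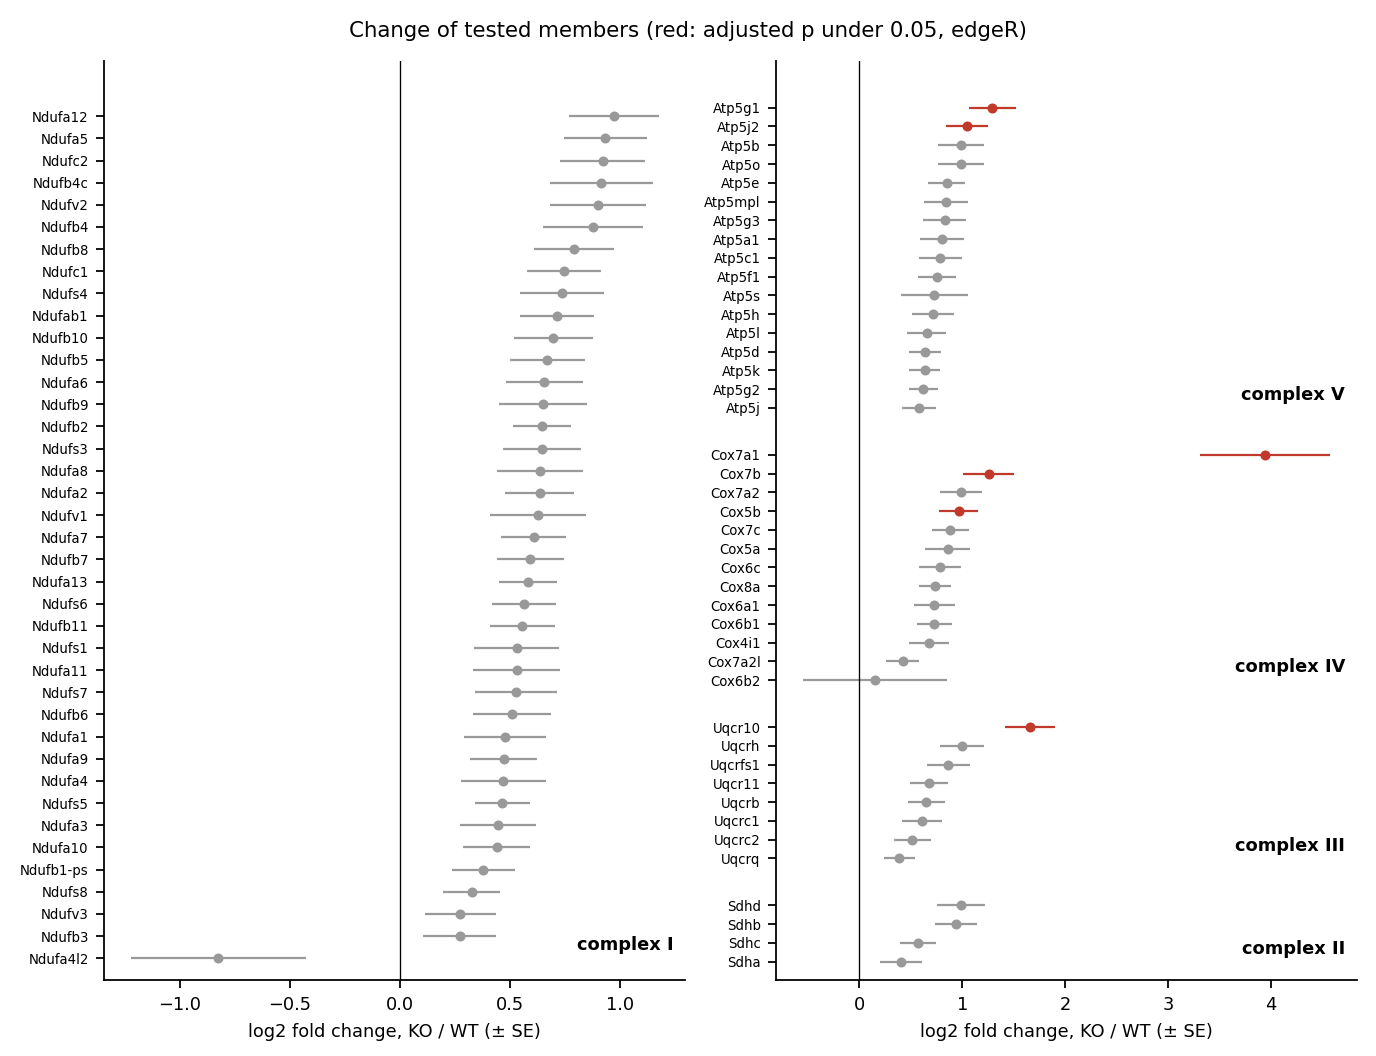
Log2 fold change of knockout over WT with its standard error for 81 of the 82 members tested, complex I on the left and complexes II to V on the right, each complex sorted by fold change. Red points mark the 6 members with an adjusted p under 0.05, and Ndufa4l2 is the single member below 0.

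The knockout libraries were not alike. Knockout 3 held the highest of the 3 knockout values for 77 of 82 members, against 25.9% of all genes, and knockout 1 the lowest for 76, against 41.2%. Relative to the WT mean, the median complex I member stood at log2 0.30 in knockout 1, 0.64 in knockout 2 and 0.83 in knockout 3. Complex II medians were 0.37, 0.80 and 0.99 in the same libraries. For complex III they were 0.38, 0.69 and 0.95. Complex IV had 0.57, 0.82 and 1.11. Complex V had 0.46, 0.86 and 1.04. The order of the 3 libraries was the same in each complex. The median coefficient of variation of a member was 21% among knockout libraries and 5.91% among WT libraries, beside 21.1% and 12.0% over all genes tested.

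**Figure D2:**
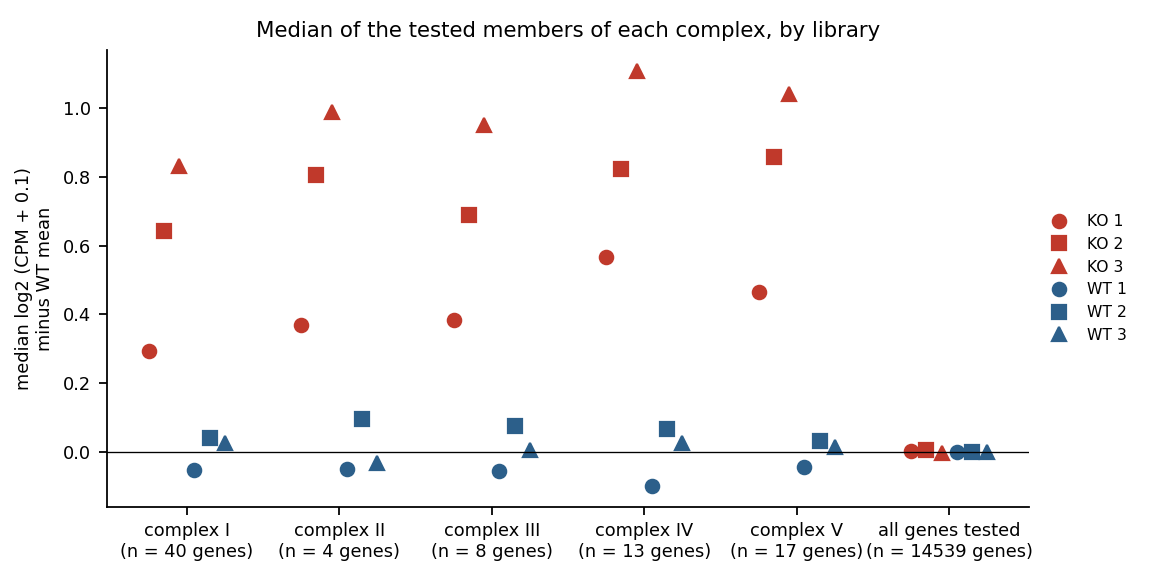
Median over the tested members of each complex of the log2 level (CPM + 0.1) minus the WT mean, 1 point per library (red knockout, blue WT; circle, square and triangle for replicates 1, 2 and 3), with all genes tested at the right. The knockout medians rank knockout 1, then 2, then 3 in every complex, the highest being 1.11 for complex IV in knockout 3.

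The median log2 fold change was 0.62 for complex I (40 members tested), 0.75 for complex II (4), 0.66 for complex III (8), 0.78 for complex IV (13) and 0.79 for complex V (17). The summed CPM ratio of knockout over WT was 1.54, 1.55, 1.66, 1.76 and 1.83 in the same order. No difference between complexes was tested, since subunits are not replicates of a condition. The standard deviation of the log2 fold change over members was 0.92 in complex IV, but 0.28 there without Cox7a1. In the other complexes it was between 0.19 in complex V and 0.40 in complex III.

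Complex I, NADH dehydrogenase, is the entry point for electrons from NADH, and its nuclear subunits divide into a catalytic core and accessory subunits. None of its 40 tested members passed the test (edgeR), where 3.37% of all genes did. An unadjusted p under 0.05 was reached by 37, all higher, against 14.6% of all genes. DESeq2 called 25 higher, against 8.77%. All 7 nuclear core subunits had every knockout library above every WT library, against 16.9% of all genes. Their median log2 fold change was 0.63. Ndufv1, which binds NADH and the flavin cofactor, had 177, 267 and 301 CPM in knockout against 148, 168.5 and 165 CPM in WT (log2 fold change 0.63 ± 0.219 SE, adjusted p = 0.135). Its partner Ndufv2 had 89.3, 139.9 and 158 CPM in knockout against 68.5, 70.5 and 68.2 CPM in WT (0.90 ± 0.218, adjusted p = 0.0687). The lowest knockout value of both genes, in knockout 1, was above the highest WT value. Ndufs8, which carries iron-sulfur clusters, had the lowest core fold change (0.33 ± 0.130, adjusted p = 0.171).

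The other 33 tested members with complex I symbols had a median of 0.61, and 32 had a positive fold change. Besides accessory subunits they include the processed copy Ndufb4c, the noncoding Ndufb1-ps, and Ndufa4 and Ndufa4l2. Ndufa5 was at 50.1, 68.8 and 82.1 CPM in knockout and at 36.4, 35.2 and 33.6 CPM in WT (0.93 ± 0.189, adjusted p = 0.0504). Ndufa12 was at 45.3, 65.5 and 78.5 CPM in knockout and at 31.2, 32.8 and 32.5 CPM in WT (0.97 ± 0.203, adjusted p = 0.0536). Ndufb2 differed from both in that knockout 1 and knockout 2 were alike, at 33.7 and 34.2 CPM, with 42.9 CPM in knockout 3 and 23.1, 23.1 and 24.5 CPM in WT. Per kilobase of transcript, the most abundant complex I members were Ndufa4, Ndufb9 and Ndufa6, at 432, 168 and 143 CPM per kb in WT and 599, 264 and 226 CPM per kb in knockout. Ndufb4 and its processed copy Ndufb4c were identical over all 390 aligned bases. Ndufb4c took 79.5% of the pair's level per length in knockout and 79.1% in WT, and both values depend on how reads were divided between the copies.

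Ndufa4 and Ndufa4l2 are related genes named for complex I. The Ndufa4 protein is now placed in complex IV, and Ndufa4l2 is known as a hypoxia-induced relative. Ndufa4 was at 221, 261 and 329.8 CPM in knockout and at 175.5, 209.6 and 201 CPM in WT (0.47 ± 0.192, adjusted p = 0.179). Ndufa4l2 was at 0.909, 0.396 and 0.531 CPM in knockout and at 1.22, 0.849 and 1.2 CPM in WT (-0.83 ± 0.398, adjusted p = 0.238). Knockout 1 overlapped the WT range for Ndufa4l2, and without that library its fold change was called lower (edgeR, -1.24, adjusted p = 0.0408). In that fit 14.2% of all genes were called lower. Ndufa4l2 was not called among the 4 libraries with Y-linked counts (edgeR, adjusted p = 0.0574). With all libraries it was not called by DESeq2 (0.220) or limma voom (0.206). Ndufa4l2 overlaps Shmt2 by 32 bases on the opposite strand, and strand use in the counting is not given. In all, 39 of the 82 members overlap another annotated gene, 30 of them on the opposite strand, while none of the 6 called members does.

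Complex II, succinate dehydrogenase, links the citric acid cycle to the chain and is the one complex with no mitochondrially encoded subunit. None of its 4 genes passed (edgeR), where 3.37% of all genes did. An unadjusted p under 0.05 was reached by 3, all higher, against 14.6% of all genes. DESeq2 called 3 higher, against 8.77%. Sdhb, the iron-sulfur subunit, had 201, 293 and 315 CPM in knockout against 132, 152 and 138 CPM in WT (0.94 ± 0.204, adjusted p = 0.0566). Sdhd, a membrane anchor, had 265.6, 379 and 479 CPM in knockout against 188, 199.1 and 178 CPM in WT (0.99 ± 0.234, adjusted p = 0.0658). The other anchor, Sdhc, had 142, 182 and 211 CPM in knockout against 119, 124 and 117 CPM in WT (0.57 ± 0.175, adjusted p = 0.105). Sdhb, Sdhc and Sdhd each separated the groups fully, with knockout above, against 16.9% of all genes. Sdha, the flavin subunit that oxidises succinate, did not: it had 584, 764 and 853 CPM in knockout against 505, 603 and 557 CPM in WT (0.40 ± 0.203, adjusted p = 0.255), and knockout 1 fell inside the WT range. Per kilobase, Sdha was nonetheless the most abundant of the 4 in WT (191 CPM per kb), ahead of Sdhd (153) and Sdhb (123).

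Complex III, the cytochrome bc1 complex, hands electrons from coenzyme Q to cytochrome c. All 8 of its members had every knockout library above every WT library, against 16.9% of all genes. Uqcr10 (chr11:4701973-4704342, minus strand, GRCm38), a small subunit of the complex, was at 119, 199.7 and 223 CPM in knockout and at 53.2, 60.2 and 58.8 CPM in WT. The rise was 1.66 ± 0.244 in log2 terms, or 3.15-fold on the means, with the smallest adjusted p of any member (0.0261). Even knockout 1, the lowest, was well above the WT range. Uqcrh, the hinge protein that contacts cytochrome c1, was at 154, 215 and 269 CPM in knockout and at 103, 110.4 and 106 CPM in WT (1.00 ± 0.217, adjusted p = 0.0568). Uqcrfs1, the Rieske iron-sulfur protein, was at 209.5, 302 and 339 CPM in knockout and at 150.0, 166 and 151 CPM in WT (0.86 ± 0.207, adjusted p = 0.0678). The core proteins Uqcrc1 and Uqcrc2 had smaller fold changes, 0.61 and 0.52 (adjusted p = 0.111 and 0.139). Uqcrq had the smallest fold change in the complex (0.39 ± 0.147, adjusted p = 0.156). On the shortest principal transcripts it was the most abundant per kilobase in WT (338 CPM per kb). Its principal transcripts run from 405 to 1521 bases, so its rank and those set against it depend on the length used. Uqcr10 ranked below 5 of the other 7 per kilobase in WT (132 CPM per kb) and stood at 417 CPM per kb in knockout.

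Complex IV, cytochrome c oxidase, reduces oxygen, and several of its nuclear subunits exist as paired isoforms with different tissue use. Cox7a1 (chr7:30184144-30186078, plus strand) encodes the isoform of subunit 7a known from heart and skeletal muscle and brown fat, and Cox7a2 the isoform of liver. Cox7a1 stood at 2.92, 13.2 and 15.5 CPM in knockout and at 0.808, 0.675 and 0.556 CPM in WT. Its log2 fold change was 3.95 ± 0.634 (adjusted p = 0.0320), or 15.5-fold on the means, the largest fold change of any member. Its call was lost with limma voom (adjusted p = 0.102). Knockout 1 was above every WT library but far below the other knockout libraries. In a test of whether the group effect differed between the pair of libraries with Xist counts and the other 4 (edgeR interaction), Cox7a1 was the 1 member of 82 called (-2.68, adjusted p = 0.0256), against 2.9% of all genes. That pair holds 1 library per group, so the spread in this fit came from the other 4 libraries alone, and the pair was assumed to vary like them. Cox7a2 was at 136, 191.5 and 215 CPM in knockout and at 78.1, 95.2 and 100.1 CPM in WT (0.99 ± 0.208, adjusted p = 0.0541). Per kilobase, Cox7a1 made up 3.47%, 10.4% and 10.8% of the pair in knockout libraries and between 0.923% and 1.71% in WT libraries, so Cox7a2 stayed the main isoform in every library.

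The alternative isoforms of subunits 6a, 8 and 4 did not reach a testable level. Cox6a2 had at most 0.342 CPM in knockout and 0.128 CPM in WT, and made up at most 0.129% of Cox6a1 and Cox6a2 per kilobase. Cox8b had at most 0.0212 CPM in knockout and no counts in WT, where 3 counts allow up to 0.0641 CPM in the shallowest library. Cox4i2, an isoform known from lung, had at most 0.0986 CPM in any library. Of 6 striated muscle markers, Tnnc2 was at 0 in all libraries, Ckm, Acta1, Tnnt3 and Myl1 stayed below 0.1 CPM, and Mylpf alone could be tested (log2 fold change 1.16, adjusted p = 0.234). The summed level of the muscle list was 0.446, 0.954 and 1.29 CPM in knockout libraries 1, 2 and 3, and WT libraries ranged from 0.214 to 0.591 CPM. Of 3 brown adipocyte markers Ucp1 was at 0 in all libraries, and the list summed to at most 0.106 CPM.

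Of the other complex IV subunits, Cox7b and Cox5b passed the test. Cox7b (chrX:106015700-106022450, plus strand), a small structural subunit, was at 170.3, 254 and 329 CPM in knockout and at 103, 110.4 and 101.7 CPM in WT (1.26 ± 0.247, adjusted p = 0.0467). Cox5b (chr1:36691449-36693681, plus strand), a subunit on the matrix side that binds zinc, was at 113, 156 and 169 CPM in knockout and at 66.4, 73.9 and 84.3 CPM in WT (0.96 ± 0.191, adjusted p = 0.0480). Both groups were apart in each gene, with knockout 1 closest to WT. Cox7c was at 173, 214 and 257 CPM in knockout and at 109, 124 and 115 CPM in WT (0.89 ± 0.181, adjusted p = 0.0507). Per kilobase the most abundant complex IV members in WT were Cox4i1 (389 CPM per kb), which carries the ATP-binding regulation of the enzyme, Cox6c (263) and Cox6a1 (221.5). The principal transcripts of Cox6c run from 503 to 738 bases, so its place depends on the length used. Cox4i1 was at 366, 494 and 533 CPM in knockout and at 272.5, 309 and 289 CPM in WT (0.68 ± 0.192, adjusted p = 0.0909). Cox7a2l, which acts in joining complexes III and IV into supercomplexes and is a member by its symbol, had a fold change of 0.42 ± 0.162 (adjusted p = 0.161).

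**Figure D3:**
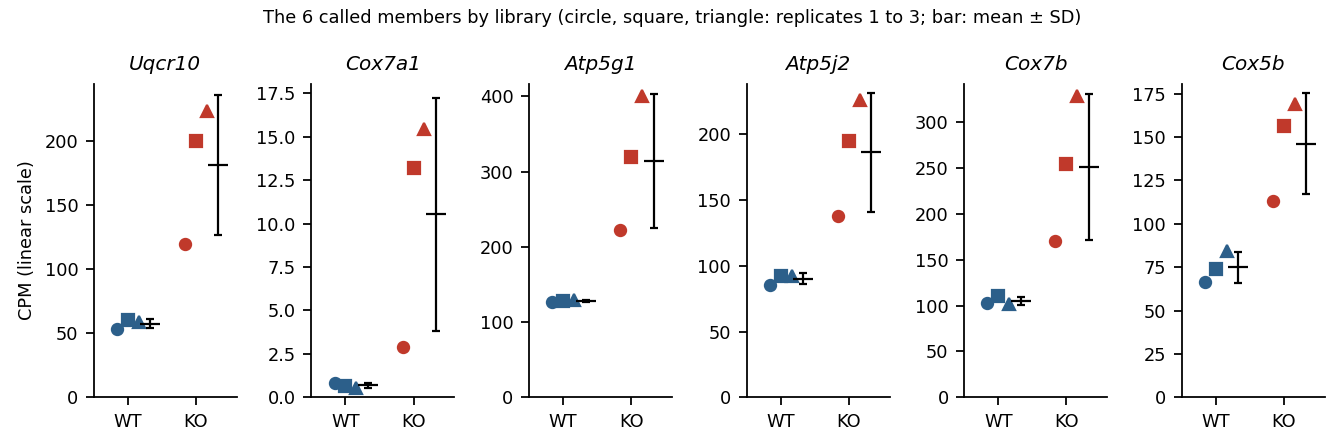
Level in CPM (linear axis from 0, scaled for each gene) of the 6 members with an adjusted p under 0.05 in each of the 3 WT (blue) and 3 knockout (red) libraries, with the mean and SD as bars. In each gene all knockout points lie above all WT points, and Cox7a1 is far lower in level than the other 5, at 0.556 to 15.5 CPM.

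Complex V, ATP synthase, couples the proton current through its membrane ring to ATP formation in its F1 head. Of 17 tested members, 16 had every knockout library above every WT library, against 16.9% of all genes. An adjusted p under 0.10 (edgeR) was reached by 16, all higher, against 7.39%. The exception in both was Atp5s, a factor whose place in the enzyme is less settled. The 5 subunits of the head and central stalk had a median log2 fold change of 0.81, and none passed (edgeR). All 5 were higher with an unadjusted p under 0.05, against 14.6% of all genes. Atp5b, the catalytic beta subunit, was the most abundant of all members per kilobase (582 CPM per kb in WT and 1155 in knockout). It was at 1697, 2360 and 2580 CPM in knockout and at 1096, 1141 and 1107 CPM in WT (0.99 ± 0.224, adjusted p = 0.0618). Atp5a1, the alpha subunit, was at 1296, 1690 and 1918 CPM in knockout and at 874, 995 and 937 CPM in WT (0.81 ± 0.214, adjusted p = 0.0795). Atp5e, the small epsilon subunit of the stalk, had the smallest adjusted p of the 5 (0.85 ± 0.182, adjusted p = 0.0559).

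Subunit c, which forms the proton-carrying ring, is encoded by 3 genes that give the same mature protein. Atp5g1 (chr11:96068852-96075670, minus strand) was at 223, 319 and 400.3 CPM in knockout and at 127, 128 and 129.5 CPM in WT, and it rose by 1.29 ± 0.229 (adjusted p = 0.0386). Atp5g3 was at 395, 521 and 612 CPM in knockout and at 263, 304.5 and 293 CPM in WT (0.83 ± 0.205, adjusted p = 0.0720). Atp5g2, much lower, was at 23.7, 22.8 and 29.9 CPM in knockout and at 17.5, 15.4 and 16.7 CPM in WT (0.62 ± 0.142, adjusted p = 0.0626). The 3 fold changes were not tested against each other, and the level of Atp5g1 per kilobase is uncertain because its annotated principal transcripts differ widely in length. Atp5j2 (chr5:145183698-145192062, minus strand), subunit f of the membrane part, was at 137.5, 194.6 and 226 CPM in knockout and at 85.6, 92.4 and 92.5 CPM in WT, and it rose by 1.05 ± 0.202 (adjusted p = 0.0461). The 4 tested subunits of the peripheral stalk, which holds the head still, had a median of 0.73. All 4 were higher with an unadjusted p under 0.05, against 14.6% of all genes, with none past the adjusted test (edgeR).

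Genes of the same organelle that are not nuclear subunits were read from lists by role. Mitochondrial DNA encodes 13 subunits of complexes I, III, IV and V. All 13 had a positive log2 fold change, against 51.0% of all genes, with a median of 0.52. Every knockout library was above every WT library for 6, against 16.9% of all genes. None passed the test (edgeR). An unadjusted p under 0.05 was reached by 4, all higher, against 14.6% of all genes, and DESeq2 called 4 higher, against 8.77%. Their summed level was 72810, 76180 and 108200 CPM in knockout and 59180, 70230 and 69500 CPM in WT, and these RNAs were read from a poly(A) library. The 49 tested assembly factors, inhibitor included, had a median of 0.26, with 39 positive (51.0% of all genes were) and 3 called higher (2.15% of all genes). Those 3 were Ndufaf6 (complex I; 1.12 ± 0.198, adjusted p = 0.0386), Uqcc3 (complex III; 0.72 ± 0.124, adjusted p = 0.0360) and Cox14 (complex IV; 0.91 ± 0.141, adjusted p = 0.0297). None was called lower in edgeR. An unadjusted p under 0.05 was reached by 14 of the 49, beside 3817 of the 14539 genes tested. Of the 14, 11 were higher, where 14.6% of all genes tested had such a p and were higher. DESeq2 called 10 of the 49 higher and 2 lower, against 8.77% and 7.03% of all genes. With limma voom 3 were higher and 1 lower, against 1.75% and 1.22%. Lyrm7, a complex III assembly factor named here after its values were seen, lay below WT in every knockout library (-1.48 ± 0.306, adjusted p = 0.0525 in edgeR and 0.0480 in limma voom). By complex the assembly medians were 0.30 for I, 0.10 for II, 0.18 for III, 0.31 for IV and 0.35 for V, where Atpif1, the inhibitor of ATP hydrolysis, had 0.33 (adjusted p = 0.363).

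The mitochondrial ribosome, which translates the mitochondrially encoded subunits, had 78 tested proteins with a median of 0.29. Of these 73 were positive, against 51.0% of all genes, and 3 rose (Mrps33, Mrpl15 and Mrpl42), against 2.15%. The call of Mrps33 was lost with limma voom (adjusted p = 0.0532). DESeq2 called 17 of the 78 higher, against 8.77% of all genes. The 14 genes of coenzyme Q synthesis and electron carriers had a median of 0.28 with 13 positive, against 51.0% of all genes. None of them passed (edgeR). An unadjusted p under 0.05 was reached by 5, all higher, against 14.6% of all genes, and DESeq2 called 3 higher, against 8.77%. Cytochrome c, encoded by Cycs, was at 54.4, 102.9 and 115.5 CPM in knockout and at 61.0, 65.1 and 58.1 CPM in WT (0.57 ± 0.271, adjusted p = 0.236), with knockout 1 below all 3 WT libraries.

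**Figure D4:**
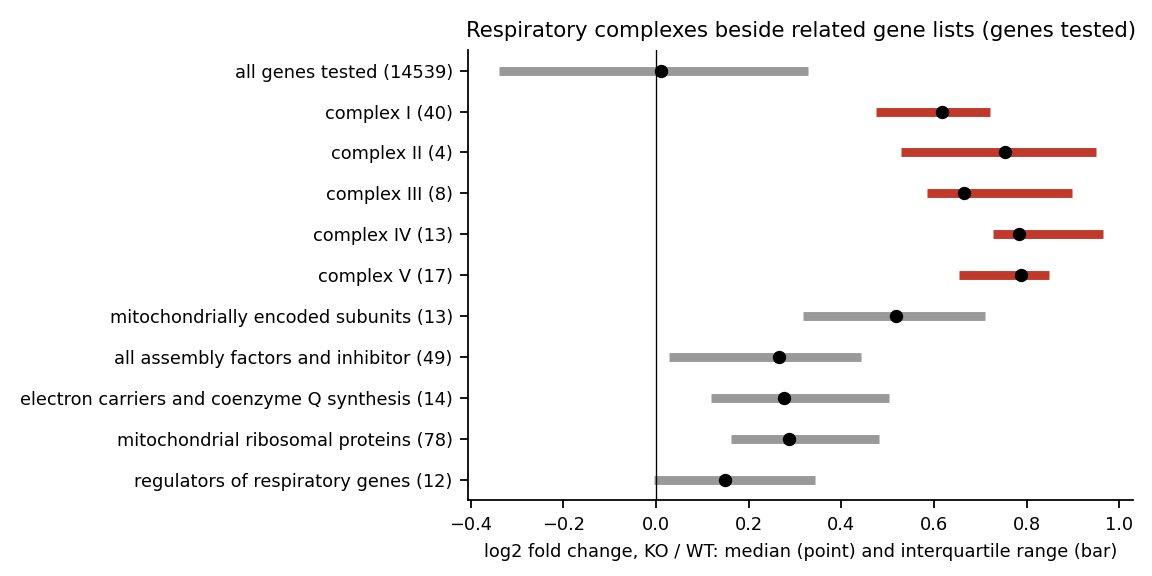
Median (point) and interquartile range (bar) of the log2 fold change of knockout over WT for all genes tested, each complex (red) and each related list (grey), with the number of genes tested in parentheses. The complexes have medians of 0.62 to 0.79, the mitochondrially encoded subunits 0.52, and the other lists 0.29 or less.

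Of 12 regulators of respiratory genes, 9 had a positive fold change, against 51.0% of all genes, and 2 rose (edgeR), against 2.15%. Ppargc1a, which encodes the coactivator PGC-1alpha, was at 24.7, 75.2 and 76.4 CPM in knockout and at 12.3, 5.75 and 4.28 CPM in WT (2.98 ± 0.565, adjusted p = 0.0446). Esrra, the nuclear receptor ERR-alpha that PGC-1alpha coactivates, was at 26.9, 64.2 and 48.3 CPM in knockout and at 14.3, 16.7 and 17.4 CPM in WT (1.53 ± 0.303, adjusted p = 0.0480). The call of Esrra was lost with limma voom (adjusted p = 0.0577), and Ppargc1a was called there (0.0497). In both genes knockout 1 was the lowest knockout library and still above WT. The transcription factors Nrf1 (0.15, adjusted p = 0.601) and Gabpa (0.14, adjusted p = 0.541) and the mitochondrial factor Tfam (0.15, adjusted p = 0.424) did not pass. No relation between these regulators and the members was tested.

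**Figure D5:**
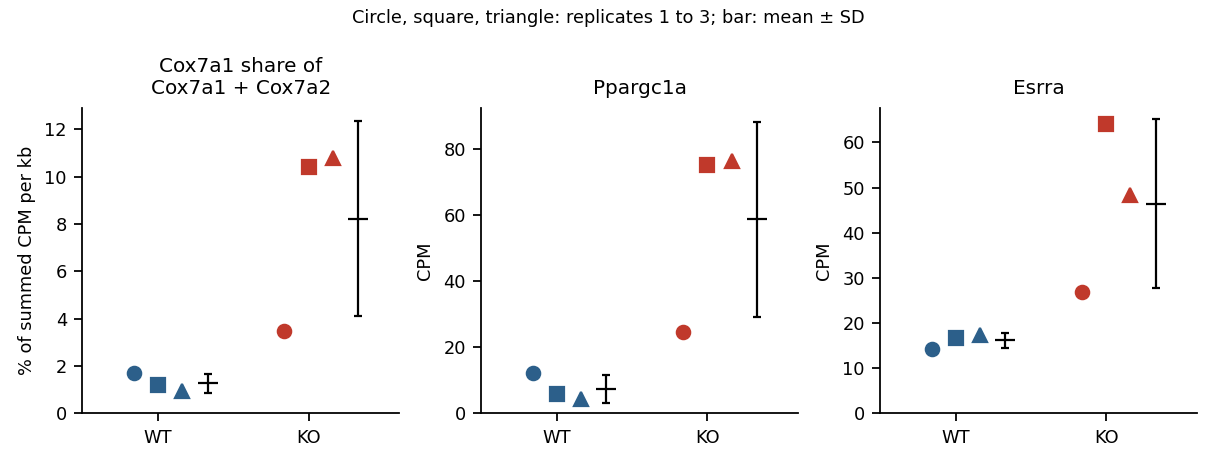
Share of Cox7a1 in the summed level of Cox7a1 and Cox7a2 per kilobase (percent, left) and levels of Ppargc1a and Esrra in CPM (middle and right) in each WT (blue) and knockout (red) library, with the mean and SD as bars. In all 3 panels knockout 1 (circle) lies between the WT libraries and the other knockout libraries.

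Promoters are shown because motifs of known regulators of respiratory genes can be read in them. RefSeq windows (GRCm38.p6) of 250 bases before to 50 after the start were matched for 65 of the 82 tested members. For 57 of the 65, bases near the RefSeq start matched those near the start of a GENCODE transcript of the gene. Each sequence below covers the 150 bases just before the RefSeq start, 5′ to 3′ on the gene's strand, with motif matches on either strand in capitals. The printed stretches are examples and no sample of the members, and none is from complex I. They stand for complex II (Sdhd), complex III (Uqcr10), the isoform pairs of complex IV (Cox6a1 and Cox7a1) and the c ring (Atp5g3). Of these genes only Uqcr10 and Cox7a1 were called. Atp5g1, the called gene of the c ring, held no motif in its window and is not printed. Sdhd lies at chr9:50603850-50603999 (minus strand), Uqcr10 at chr11:4704345-4704494 (minus), Cox6a1 at chr5:115348959-115349108 (minus), Cox7a1 at chr7:30184021-30184170 (plus) and Atp5g3 at chr2:73911327-73911476 (minus). The starts of Cox7a1 and Cox6a1 differ between the annotations, and the last 27 and 23 bases of their stretches lie inside the GENCODE genes.
Sdhd: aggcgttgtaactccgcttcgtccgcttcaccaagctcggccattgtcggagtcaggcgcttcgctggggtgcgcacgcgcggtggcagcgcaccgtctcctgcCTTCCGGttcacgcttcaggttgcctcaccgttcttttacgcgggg
Uqcr10: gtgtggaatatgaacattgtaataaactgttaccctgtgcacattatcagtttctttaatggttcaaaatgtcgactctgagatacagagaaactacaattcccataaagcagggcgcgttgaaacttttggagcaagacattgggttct
Cox6a1: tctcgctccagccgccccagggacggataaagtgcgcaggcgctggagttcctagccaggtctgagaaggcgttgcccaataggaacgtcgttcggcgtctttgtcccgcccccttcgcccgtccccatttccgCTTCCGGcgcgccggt
Cox7a1: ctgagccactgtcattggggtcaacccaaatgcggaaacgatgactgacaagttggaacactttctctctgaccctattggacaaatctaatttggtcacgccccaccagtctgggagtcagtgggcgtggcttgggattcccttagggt
Atp5g3: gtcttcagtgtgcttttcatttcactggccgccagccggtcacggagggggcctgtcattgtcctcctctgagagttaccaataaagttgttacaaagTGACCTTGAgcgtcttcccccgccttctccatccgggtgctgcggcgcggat

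The capitals mark the ETS motif bound by GABP (CCGGAAG, here as its reverse complement) 46 bases before the start in Sdhd and 16 before in Cox6a1. In Atp5g3 they mark the ERR motif (TCAAGGTCA, also reversed) 52 bases before the start. The printed stretches of Uqcr10 and Cox7a1 held none of these letters. Over the whole windows and both strands, the ETS motif was found in 16 of 65 members (24.6%), against 19.3% of the 10725 tested genes with a promoter and 9.93% of all 27025 genes in the promoter table. A match to the YY1 motif (AAGATGGC) was found in 9 members (13.8%), against 5.06% and 3.19%. The ERR motif was found in 2 members (3.08%), against 0.354% and 0.466%. No pair of matches overlapped, and 25 of 65 members held at least 1 motif. Of the 6 called members, all with a window, Atp5j2 alone held one, the YY1 motif 23 bases after its RefSeq start. The 150 bases before that start lie inside the GENCODE gene of Atp5j2, so its start differs between the annotations as well. These matches are letters in a window and no evidence of binding.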

How the data were processed

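Poly(A) RNA of 6 livers was sequenced as 1 library per mouse. The deposited values are gene-level expected counts, which the authors made with bcl2fastq 2.17, cutadapt 1.18, STAR 2.7.0f and RSEM 1.3.1, per the submitters' processing notes. Those notes name the build mm9, whereas all 55450 gene identifiers matched GENCODE M21 on GRCm38. Coordinates here are from GENCODE M21 on GRCm38, gene by identifier. Strand use is not given in the sources used here. Between 4.93% and 5.47% of values were not whole, and all were rounded. Genes were filtered with filterByExpr, TMM-normalised and tested, knockout against WT, with edgeR 4.0.16 (quasi-likelihood, R 4.3.3) over 14539 genes, with Benjamini-Hochberg adjustment at 0.05. Levels per kilobase used the shortest principal transcript. Medians per library are log2 ratios with 0.1 CPM added.

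The members, lists, motifs and tests were chosen with earlier results of these data known. Named were Stk11, every called member, the 3 members of each complex with the smallest adjusted p and the 3 with the highest level per kilobase, members against their complex's direction, the isoform sets, every called gene of the lists and 7 chosen regulators and partners; the core and stalk subunits named besides were chosen for their roles after their values were seen. Alternatives were DESeq2 1.42.0, limma voom 3.58.1, other scalings, no filter, a replicate block, Xist state as a covariate, subsets of libraries and other member rules. In simulated data at the dispersion of these libraries edgeR recovered 4 of 94 genes changed 2-fold (4.26%) and 73 of 100 changed 4-fold (73.0%), with 5 false calls. The common biological coefficient of variation was 0.314. One tested member is not reported singly here and is not drawn in the plot of fold changes.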

Additional observations from a re-analysis of the deposited data

Results flagged for a closer look

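The effect of group was compared between the pair of libraries with Xist counts (knockout 1 and WT 1) and the 4 libraries with Y-linked counts, by the interaction term in edgeR. The term passed for Cox7a1 (interaction -2.68, adjusted p = 0.0256) and for Ppargc1a (-2.91, adjusted p = 0.0103), both with the smaller log2 fold change in the Xist pair. Cox7a1 was the 1 member of 82 called, against 2.9% of all genes tested, and 16 members had an unadjusted p under 0.05, against 20.9% of all genes. Neither count of members was above the share over all genes. The interaction was negative for 76 of 82 members, with a median of -0.41. The matching share and median over all genes are not given here, so nothing is read from these values about the members. Each arm of the Xist pair is 1 library, so the spread came from the other 4 libraries alone, the lone libraries were assumed to vary like them, and Xist state cannot be told apart from anything else particular to knockout 1 and WT 1.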

How the results depend on the processing

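The number of members called higher, 6 in the reported fit, moved with the test more than their fold changes did. It was 27 with library size only (2.61% of all genes), 15 of 89 with no filter (2.04%), 61 with DESeq2 (8.77%), 47 with Xist state as a covariate (5.36%), 73 among libraries with Y-linked counts (17.2%) and 6 both with RLE size factors (2.05%) and with limma voom (1.75%), which shared 5 of the 6. Leaving out 1 library gave between 0 and 76 called higher and between 0 and 1 called lower, the highest without knockout 1 and 0 without any other library. The median log2 fold change then ranged from 0.53 to 0.81 over members, 0.48 to 0.72 in complex I, 0.61 to 0.90 in II, 0.51 to 0.77 in III, 0.64 to 0.98 in IV and 0.63 to 0.95 in V. With the replicate block 0 members passed in edgeR, against 0.543% of all genes called higher. An unadjusted p under 0.05 was reached there by 73 members, for which no all-gene share is given. Same-numbered libraries are from different mice, so the numbers were not taken as pairs. The deviations of same-numbered libraries correlated at 0.178, 0.0443 and 0.0679, beside -0.167 to 0.203 for unlike numbers. Knockout 1 and WT 1 also shared Xist state, which this correlation cannot tell apart from pairing. In the single pair with Xist counts, which allows no test, the medians were 0.41 over members, 0.36 in complex I, 0.38 in II, 0.42 in III, 0.67 in IV and 0.49 in V. With the Sdhaf genes kept in, the complex II median was 0.33. Between 80 and 81 members were above 0 in every refit of knockout against WT, and no scaling moved the all-gene median past 0.06. In simulated data with few genes changed, edgeR recovered 4.26% of genes changed 2-fold at the dispersion of these libraries and 69.3% at 0.25 of it.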
